A study of Mus musculus with 28 samples.

Results

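Of 82893 chromatin regions of mouse fibroblasts in which at least 1 of 8 ChIP-seq libraries had a peak, 30286 held a peak of a NuRD subunit. Of these, 9004 had no overlap with an H3.3 peak in either of 2 HA-H3.3 replicates. These 9004 regions without an H3.3 peak made up 29.7% of all subunit regions (95% exact binomial interval 29.2% to 30.2%). They were selected by a peak coverage of 0 in both H3.3 libraries, so their low H3.3 signal and the presence of a subunit peak are properties of the selection and are given as description. The other 21282 subunit regions, which had H3.3 coverage above 0 in 1 or both replicates, and the 52607 regions with H3.3 peaks but no subunit peak served as references. All coordinates of regions are mm9 and 1-based.

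All 28 samples of the study are from NIH/3T3 Tet-On 3G fibroblasts, an established line of mouse embryo fibroblasts with a transactivator that works in the presence of doxycycline. CHD4, HDAC1, HDAC2, MBD2/3, MTA1, RBBP4, H3K27ac, H3K4me3 and H3K9ac were each precipitated once from cells that the labels call wild type and that were transduced with no construct. HA-H3.3 was precipitated in 2 replicates from wild-type cells that carry an HA/FLAG-H3.3 construct and were grown with aphidicolin, an inhibitor of DNA replication, and 2 mg/ml doxycycline. The H3.3 map and the subunit maps therefore come from different constructs and growth conditions, and the effect of that difference cannot be told apart from the absence of an H3.3 peak. MTA1 and RBBP4 were also precipitated once each from H3.3 knockdown cells, which received the OFP-H3.3A/GFP-H3.3B constructs, and once each from wild-type control cells, which received GFP-Luciferase/OFP-Luciferase. Sequential ChIP took chromatin of HA/FLAG-H3.3 cells given doxycycline first with a FLAG antibody and then with an RBBP4 antibody, with IgG as the second-step control. Polyadenylated RNA was sequenced from 3 H3.3 knockdown clones and 2 luciferase control clones with the same pairs of constructs. Each RNA sample was 1 clone, and the labels' treatment field gives FLAG/HA-H3.3 fibroblasts with 2 mg/ml doxycycline for all 5 of them. The p-values on RNA measure only the spread between these clones.

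NuRD is a chromatin complex that joins nucleosome remodelling to removal of acetyl groups from histones. CHD4 is its remodelling ATPase, HDAC1 and HDAC2 are its deacetylases, MBD2 and MBD3 are methyl-CpG-binding-domain proteins that occur in alternative forms of the complex, MTA1 is a scaffold subunit that recruits the deacetylases, and RBBP4 is a WD40 protein that binds histones and is shared with several other chromatin complexes. H3.3 is the replication-independent H3 variant, encoded in mice by H3f3a and H3f3b and known for its enrichment at active promoters and gene bodies. H3K4me3 marks active and poised promoters, and H3K9ac and H3K27ac mark active promoters and enhancers.

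The 4 promoters shown here belong to genes whose 5′ end lay inside a region without an H3.3 peak and with peaks of 5 subunits, taken in order of mean subunit level, and serve as examples of the most densely bound promoters among these regions. They come from the RefSeq table of the GRCm38.p6 build, run from 250 bases before to 50 bases after the annotated start, and read 5′ to 3′. Capitals mark matches, on either strand, to 9 motifs. The AP-1 motif was searched as TGANTCA, the ETS motif as CCGGAAG and the NRF1 motif as GCGCATG. The E-box was searched as CACGTG, the TEAD motif as GGAATG and the RUNX motif as TGTGGT. The GATA motif was searched as GATAAG, the telomere repeat unit as TTAGGG and the motif of SP and KLF factors as GGGCGG.
Gtse1: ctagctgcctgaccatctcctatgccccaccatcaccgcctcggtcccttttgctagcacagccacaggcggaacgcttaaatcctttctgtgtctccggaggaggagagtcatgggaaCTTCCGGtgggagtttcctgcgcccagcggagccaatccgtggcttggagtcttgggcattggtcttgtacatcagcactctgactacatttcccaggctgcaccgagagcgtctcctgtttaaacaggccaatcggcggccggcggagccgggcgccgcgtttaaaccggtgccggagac
2810442I21Rik: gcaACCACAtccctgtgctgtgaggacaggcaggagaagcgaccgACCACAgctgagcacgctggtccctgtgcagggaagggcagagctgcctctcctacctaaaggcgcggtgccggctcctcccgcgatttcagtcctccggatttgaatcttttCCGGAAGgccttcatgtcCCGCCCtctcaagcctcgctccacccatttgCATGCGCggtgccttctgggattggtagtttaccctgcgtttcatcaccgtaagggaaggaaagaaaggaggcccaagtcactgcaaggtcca
Timm22: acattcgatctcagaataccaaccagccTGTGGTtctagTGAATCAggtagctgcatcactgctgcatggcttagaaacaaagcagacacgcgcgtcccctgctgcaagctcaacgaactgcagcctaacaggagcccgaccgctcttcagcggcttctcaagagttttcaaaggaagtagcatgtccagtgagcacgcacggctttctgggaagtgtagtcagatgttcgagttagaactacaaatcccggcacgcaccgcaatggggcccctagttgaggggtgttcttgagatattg
Rpl27: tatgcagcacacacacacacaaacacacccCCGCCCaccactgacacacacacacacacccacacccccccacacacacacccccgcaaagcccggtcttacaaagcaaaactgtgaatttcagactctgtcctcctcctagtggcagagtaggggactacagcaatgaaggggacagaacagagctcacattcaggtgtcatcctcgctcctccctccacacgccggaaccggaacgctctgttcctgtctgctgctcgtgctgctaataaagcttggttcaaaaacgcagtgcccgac
In GRCm38.p6 the stretches lie at chr15:85859457-85859756 on the plus strand (Gtse1), chr11:16951233-16951532 on the minus strand (2810442I21Rik), chr11:76406675-76406974 on the plus strand (Timm22) and chr11:101441995-101442294 on the plus strand (Rpl27). Gtse1, a gene for a microtubule-associated protein expressed in the G2 and S phases, has its 5′ end in the mm9 region chr15:85689699-85690539, with H3.3 at 1.67 and 1.88 RPKM, RBBP4 at 10.0 RPKM and H3K4me3 at 23.4 RPKM, and its promoter holds 1 ETS motif. Its RNA was at 9.40, 32.0 and 36.6 FPKM in knockdown clones 1 to 3 and at 44.5 and 28.5 FPKM in control clones 1 and 2, with overlapping groups. In bulk RNA, fewer cells with a transcript and less of it per cell cannot be told apart. The region of 2810442I21Rik, chr11:16850933-16851766, had H3.3 at 2.12 and 1.37 RPKM, RBBP4 at 12.7 RPKM and H3K4me3 at 20.3 RPKM, and its promoter holds matches to the ETS, NRF1, SP and KLF and RUNX motifs. Its RNA was at 3.02, 2.87 and 2.87 FPKM in the knockdown clones and at 0.953 and 1.19 FPKM in the control clones, without passing the test (log2 difference 0.92, limma adjusted p = 0.417). The groups do not overlap, and all 3 knockdown clones were over both control clones for 11.4% of all genes tested. Timm22 encodes a subunit of the mitochondrial inner membrane translocase, and its region chr11:76220107-76221007 had H3.3 at 1.15 and 2.12 RPKM, MTA1 at 4.62 RPKM and H3K4me3 at 23.6 RPKM. Rpl27, a gene of the large ribosomal subunit, has its 5′ end in chr11:101303231-101304189, with H3.3 at 1.61 and 1.14 RPKM and H3K4me3 at 17.1 RPKM, and its RNA was at 658, 760 and 645 FPKM in the knockdown clones and at 719 and 668 FPKM in the control clones.

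The same motifs were counted in the promoters of all 2015 genes tied to a region without an H3.3 peak, at the most 5′ annotated start of each gene. These promoters were rich in CpG. The median was 23 CpG dinucleotides per 300 bases at genes of regions without an H3.3 peak. It was 22 at the 4736 genes at promoters of subunit regions with H3.3 but of no region without an H3.3 peak. Over all 27025 genes of the RefSeq table it was 7. Only the 17791 genes with an FPKM and a known strand could be tied to a region, and over these it was 13. CCGGAAG was found in 19.6% of promoters at regions without an H3.3 peak, in 20.8% at subunit regions with H3.3 and in 9.14% of all promoters. GGGCGG was found in 66.1%, in 68.0% and in 35.9% of the same 3 sets. GCGCATG occurred in 7.00%, 7.85% and 4.03%, and CACGTG in 10.5%, 10.6% and 7.24%. Lower shares than over all promoters were found for TGANTCA with 4.52%, 4.24% and 7.92%, for GATAAG with 3.82%, 4.43% and 7.42%, and for TGTGGT with 11.5%, 11.2% and 16.9%. GGAATG was at 12.0%, 11.5% and 14.7%, and TTAGGG at 10.0%, 9.73% and 10.5%. The 17791 genes that could be tied differed less from the genes at these regions than all promoters did. They were at 11.9% for CCGGAAG, 47.0% for GGGCGG, 4.97% for GCGCATG and 8.20% for CACGTG. For TGANTCA they were at 7.37%, for GATAAG at 6.76%, for TGTGGT at 14.5%, for GGAATG at 13.4% and for TTAGGG at 10.4%. Of the 2015 genes, 1110 also had an H3.3 region within 3 kb. At the 905 with none, GGGCGG was found in 59.4% of promoters (interval 56.2% to 62.7%), below the 68.0% (66.6% to 69.3%) at subunit regions with H3.3, and the median was 21 CpG dinucleotides. At the 1047 genes whose 5′ end lay inside a region without an H3.3 peak, GGGCGG was found in 62.9% (59.9% to 65.9%). CCGGAAG was at 20.7% and 22.4% in these 2 sets. A match describes the letters and does not show binding.

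Depth limits what a single region can show. The libraries behind the region table held 6.62 M (HDAC2) to 24.1 M (H3K4me3) reads, and the H3.3 replicates held 13.6 M and 18.4 M. A region without an H3.3 peak held a median of 4 (MBD2/3) to 12 (H3K4me3) reads per library, for a CV from counting alone of 50.0% to 28.9%. Subunit regions with H3.3 held medians of 16 to 116 reads. Shares are given with intervals that cover counting error over regions only, and with 1 library per protein or modification no ChIP difference has a replicate check.

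The regions without an H3.3 peak were short. Their median length was 310 bp, with quartiles of 209 and 442 bp, against a median of 1534 bp for subunit regions with H3.3 and 768 bp for H3.3 regions with no subunit. Regions with a lone peak had median lengths of 148 bp for CHD4, 148 bp for MTA1, 160 bp for HDAC1, 183 bp for MBD2/3, 216 bp for HDAC2 and 342 bp for RBBP4. No subunit region under 200 bp had an H3.3 peak, and 56 of 200 to 400 bp did, against 4136 of that length that did not. Comparisons over all lengths therefore set short regions against long ones. Several of them turned round among regions of 400 to 800 bp (2410 without and 2554 with an H3.3 peak) and of at least 800 bp (390 and 18672), and both values are given for these. The length classes were compared after the data were seen. They are not free of the selection, since lone regions differed in length by subunit. Without an H3.3 peak, the 95th percentile of their length was 192 bp (CHD4) to 313 bp (HDAC2), against 666 bp for RBBP4. Nearly all regions of 400 to 800 bp without an H3.3 peak therefore held RBBP4 (98.6%). A region's length also includes any H3.3 peak it holds, so without one it comes from subunit peaks alone. At a given length, wider or more subunit peaks are thus favoured without an H3.3 peak, which bears on every comparison within a class. The class of at least 800 bp has no upper bound. The 95th percentile of length was 771 bp without an H3.3 peak and 4001 bp with one, so lengths in that class were not matched.

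Over all lengths, most regions without an H3.3 peak carried a peak of 1 subunit, which did not hold for those of at least 800 bp or for the more deeply read ones. A single subunit was called in 7192 of them (79.9%), against 51.8% of subunit regions with H3.3. Peaks of at least 2 subunits were found in 1812 (20.1%), against 48.2%, and peaks of at least 4 subunits in 142 (1.58%), against 7.42%. Read the other way, the share of subunit regions without an H3.3 peak was 39.5% where 1 subunit had a peak, 17.9% with 2, 12.4% with 3, 8.35% with 4, 8.42% with 5 and 6.48% with 6. Within the 2 longer classes, where length itself bears on the number of subunits, the order was the opposite. Peaks of at least 2 subunits at 400 to 800 bp were called in 43.2% of regions without an H3.3 peak, against 22.9% with one, and at 800 bp or more in 74.6% against 51.7%. The share without an H3.3 peak at 400 to 800 bp was 41.0% where 1 subunit had a peak, 60.4% with 2 and 75.4% with 3. Among regions with at least 20 reads in a subunit library with a peak, at least 2 subunits were called in 56.6% of the 1899 without an H3.3 peak and in 53.7% of the 18571 with one.

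Over all lengths, the subunits also differed in how often their regions lacked an H3.3 peak. MBD2/3, the methyl-CpG-binding-domain proteins, had the highest share of their regions without an H3.3 peak, 36.5% (960 of 2629). CHD4 followed with 29.9% (603 of 2017) and MTA1 with 28.1% (849 of 3017). RBBP4 was at 23.1% (5936 of 25717), HDAC1 at 20.0% (1049 of 5238) and HDAC2 at 19.5% (2159 of 11095). The deacetylases were thus at the low end of this order and did not differ from each other by more than their counting error. Where a subunit was called alone the shares were far higher, at 78.0% for CHD4, 77.5% for MBD2/3, 76.1% for MTA1, 68.0% for HDAC1 and 57.7% for HDAC2, while RBBP4 alone was at 30.5% (4252 of 13924). These lone shares went with length. Under 200 bp, where no subunit region had an H3.3 peak, lay 349 of the 359 lone CHD4 regions without one. At 400 to 800 bp the numbers without and with an H3.3 peak were 0 and 33 for lone CHD4, and 0 and 46 for MTA1. They were 2 and 57 for MBD2/3, 1 and 77 for HDAC1, 11 and 173 for HDAC2, and 1356 and 1584 for RBBP4, so lone RBBP4 had the highest share there. Among regions of 400 to 800 bp, the 6 shares over all regions of a subunit lay close together, between 52.7% for RBBP4 and 57.2% for HDAC2. The order over all lengths thus did not stand within this class. At 800 bp or more, MBD2/3 again had the highest share, 5.19% (interval 4.16% to 6.39%). The others were between 2.01% for MTA1 and 3.45% for CHD4 (interval 2.54% to 4.56%).

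RBBP4 was the subunit whose frequency differed most over all lengths. It had a peak in 65.9% of regions without an H3.3 peak and in 92.9% of subunit regions with H3.3. HDAC2 had a peak in 24.0% against 42.0%, and HDAC1 in 11.7% against 19.7%. MBD2/3 was the only subunit of the 6 more frequent in the regions without an H3.3 peak by more than counting error, with 10.7% against 7.84%. Within 400 to 800 bp the frequency of RBBP4 turned to 98.6% without an H3.3 peak, against 83.6% with one, that of HDAC2 to 31.1% against 21.9% and that of HDAC1 to 13.1% against 9.75%, while MBD2/3 was at 6.97% against 5.76%. Lone RBBP4 regions were the longest, so a lower bound on length itself favours RBBP4 among regions without an H3.3 peak. The turn of RBBP4 cannot be told apart from that. At 800 bp or more MBD2/3 was at 21.3% without an H3.3 peak, against 8.12% with one. RBBP4 (99.0% against 94.3%), HDAC2 (61.3% against 44.8%), HDAC1 (32.3% against 21.1%) and CHD4 (12.1% against 7.05%) were also more frequent there. MTA1 was at 10.8% against 11.0%. Over all lengths MTA1, at 9.43% against 10.2%, and CHD4, at 6.70% against 6.64%, were near equal. Among regions with a CHD4 peak, an RBBP4 peak was also present in 33.3% of those without an H3.3 peak and in 89.9% of those with one. The same shares were 27.8% and 89.8% for MTA1, 30.4% and 86.3% for MBD2/3, 49.9% and 92.9% for HDAC1, and 53.5% and 91.2% for HDAC2. The commonest pair in the regions without an H3.3 peak was HDAC2 with RBBP4, which accounted for 694 regions (7.71%, against 19.1% of subunit regions with H3.3).

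**Figure D1:**
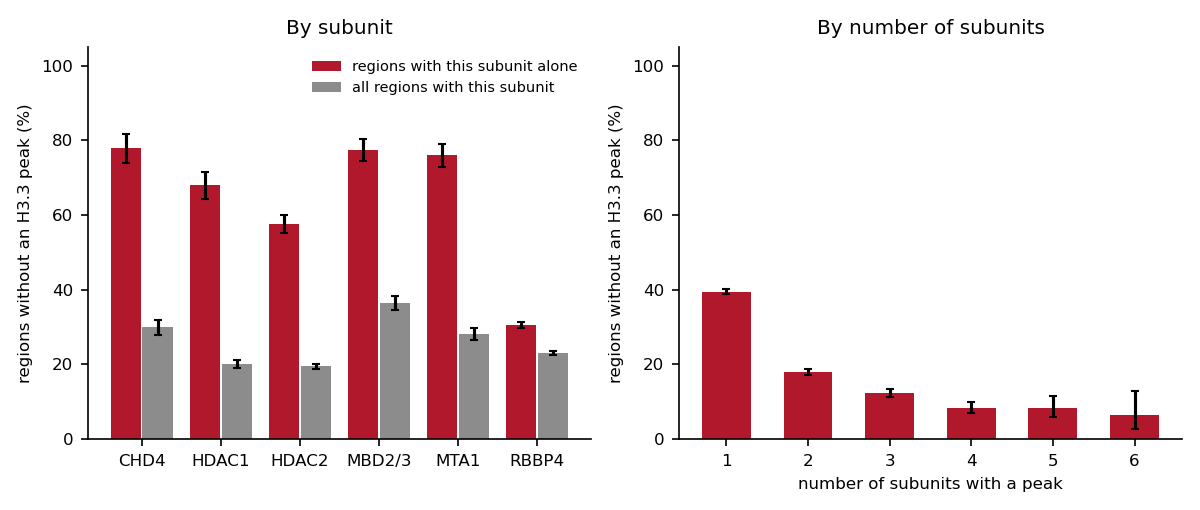
Bars give the share of subunit regions without an H3.3 peak in percent (vertical axis), on the left for regions with a subunit alone (red) and all regions with it (grey), on the right by number of subunits with a peak, with 95% exact binomial intervals. RBBP4 alone, at 30.5%, stands apart from the other lone subunits, at 57.7% to 78.0%, in a plot over all lengths.

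Promoters, meaning regions annotated as 3 kb upstream or 5′UTR, made up 25.8% of the regions without an H3.3 peak (2324 regions). The share was 27.0% among subunit regions with H3.3 and 7.15% among H3.3 regions with no subunit. Introns alone accounted for 30.9%, against 33.6% and 47.6%, and regions with no annotated feature for 32.2%, against 29.8% and 30.2%. Over all lengths the promoter shares of both kinds of subunit region thus lay close together. Promoters at 400 to 800 bp made up 38.5% of regions without an H3.3 peak, against 24.0% with one, and at 800 bp or more 52.6% against 27.4%. The promoter share rose with the number of subunits, from 20.5% of regions with 1 subunit over 44.9%, 49.3% and 60.4% to 61.8% of those with 5, while 1 of the 7 regions with 6 subunits was a promoter. Lone MTA1 and lone MBD2/3 regions were promoters in 8.08% and 10.8%, and lone RBBP4 regions in 24.7%. On chromosomes, the share of subunit regions without an H3.3 peak ran from 24.3% on chromosome 3 to 33.5% on chromosome 6 and was 33.3% on X, and both subunit regions on mitochondrial DNA were without an H3.3 peak.

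By level, H3.3 itself was low in the regions selected for lacking its peaks. Median H3.3 was 1.12 and 1.09 RPKM (reads per kb of region and per M reads of the library) in the 2 replicates, against 4.26 and 4.10 RPKM in subunit regions with H3.3 and 2.33 and 2.99 RPKM in H3.3 regions with no subunit. Only 210 regions (2.33%) reached the median of the H3.3 regions with no subunit in both replicates. RBBP4 had the highest median of the subunits, 3.97 RPKM, against 2.95 in subunit regions with H3.3 and 1.09 in H3.3 regions with no subunit. HDAC2 was at 2.57, 2.16 and 0.94 RPKM in the same order, HDAC1 at 1.91, 1.63 and 0.87, MBD2/3 at 1.60, 1.26 and 0.82, MTA1 at 1.57, 1.33 and 0.82, and CHD4 at 1.54, 1.30 and 0.83. Each subunit was thus denser over these short regions than over the longer regions with H3.3, a level that the selection on peaks bears on.

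Just outside the rule were regions with a small H3.3 coverage. The 3 subunit regions with the least H3.3 coverage had H3.3 levels of 1.87 and 1.67 RPKM at the Bdnf promoter region chr2:109533368-109534868, of 1.41 and 1.41 at chr6:127510547-127512163, and of 2.16 and 2.00 at chr2:130664812-130666418. These levels overlap the range without an H3.3 peak, where the upper quartiles were 1.70 and 1.75 RPKM. The limit is set by peak calls, and no gap in level separates its sides.

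**Figure D2:**
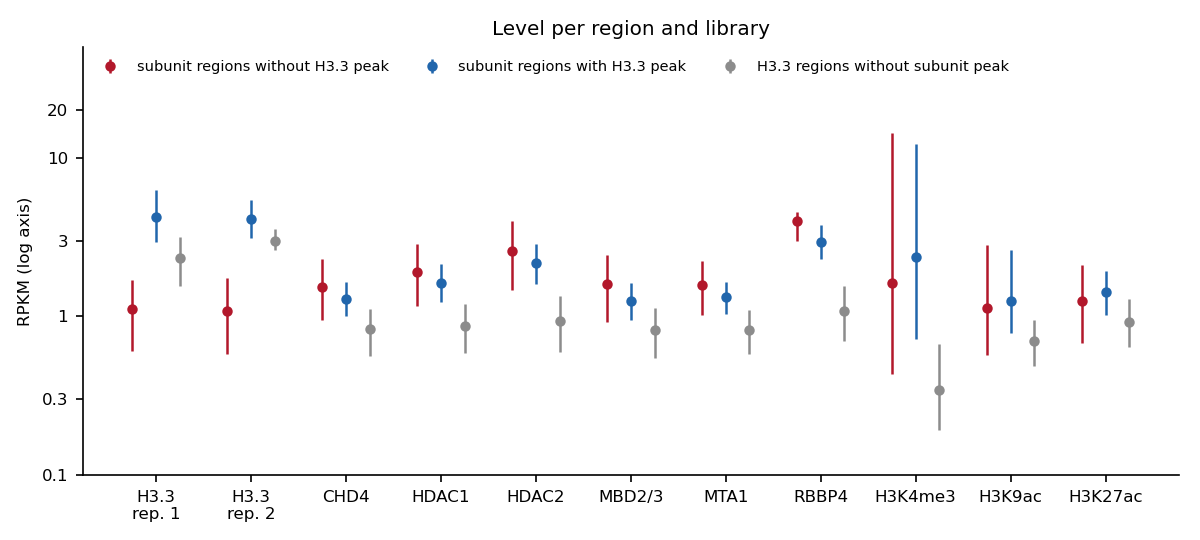
Points give the median and lines the quartiles of RPKM per region (vertical log axis) in the 11 libraries, for subunit regions without an H3.3 peak (red), subunit regions with one (blue) and H3.3 regions with no subunit peak (grey). H3.3 medians of 1.12 and 1.09 stand apart from 4.26 and 4.10, while H3K4me3 medians of 1.62 and 2.38 both lie above 0.34.

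The histone modifications were not used in the selection. H3K4me3 had a median of 1.62 RPKM (quartiles 0.43 and 14.4) in regions without an H3.3 peak, against 2.38 (0.72 and 12.2) in subunit regions with H3.3 and 0.34 in H3.3 regions with no subunit. H3K9ac was at 1.13, 1.26 and 0.70 RPKM and H3K27ac at 1.25, 1.43 and 0.92 RPKM in the same order. The quartiles of H3K4me3 were wide, and its level went with position. At promoters its median was 13.9 RPKM without an H3.3 peak and 13.6 RPKM with one. H3K9ac there was 2.59 against 2.96 RPKM, and H3K27ac 1.62 against 1.70 RPKM. These values are over all lengths, and within the 2 longer classes the promoters without an H3.3 peak were the denser. Lengths were not matched in the class of at least 800 bp, so a difference in density there cannot be told apart from length. At promoters of 400 to 800 bp, H3K4me3 was 15.2 against 13.5 RPKM, H3K9ac 2.95 against 2.55 RPKM and H3K27ac 1.71 against 1.44 RPKM. At promoters of at least 800 bp (205 and 5117 regions) the values were 19.4 against 13.6, 4.27 against 3.00 and 2.19 against 1.72 RPKM. Outside promoters, median H3K4me3 was 2.26 against 1.23 RPKM at 400 to 800 bp and 15.1 against 1.31 RPKM at 800 bp or more (185 and 13555 regions).

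H3K4me3 density also went with the number of subunits. Without an H3.3 peak it was 1.07 RPKM with 1 subunit, 12.6 with 2, 14.7 with 3, 18.9 with 4, 21.7 with 5 and 5.97 with 6. With an H3.3 peak it was 1.18, 4.08, 11.3, 12.6, 14.7 and 15.7 RPKM. Over all lengths, the median in regions with 2 to 5 subunits was thus higher without an H3.3 peak. At 400 to 800 bp this stood for 2 subunits (14.1 against 8.69 RPKM), while with 3 subunits it was 13.8 against 15.5 RPKM and with 4 subunits 17.8 against 19.2 RPKM. For 1 subunit the order turned at that length, to 3.73 against 1.498 RPKM. At 800 bp or more the median was higher without an H3.3 peak for 1 to 5 subunits, as with 3 (18.3 against 11.1 RPKM) and 4 (20.6 against 12.6 RPKM). With 6 subunits it was 5.50 against 16.1 RPKM there. The region of highest H3K4me3 was chr11:83942681-83942824, in an intron of Tada2a, a gene for a subunit of acetyltransferase complexes. This region had 52.7 RPKM of H3K4me3 and H3.3 at 2.05 and 1.89 RPKM. Golga3 and Ewsr1 had promoter regions of 45.7 and 45.3 RPKM, and an intron of the replication factor C gene Rfc2 held 49.1 RPKM.

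Peaks of the modifications, like their levels, were less frequent without an H3.3 peak over all lengths and more frequent within the 2 longer classes. The order within a class cannot be told apart from the wider subunit peaks that it favours without an H3.3 peak. An H3K4me3 peak overlapped 47.9% of regions without an H3.3 peak, against 64.8% of subunit regions with H3.3, an H3K9ac peak 34.5% against 47.7%, and an H3K27ac peak 17.9% against 42.0%. At promoters the shares were 88.0% and 95.4% for H3K4me3, 73.6% and 87.5% for H3K9ac, and 34.5% and 63.0% for H3K27ac. Among regions of 400 to 800 bp the shares were 68.7% and 54.9% for H3K4me3, 53.1% and 36.6% for H3K9ac, and 32.3% and 21.6% for H3K27ac. In that length class it was so at promoters (929 regions without and 612 with an H3.3 peak), where the shares were 93.9% and 92.6%, 83.4% and 76.5%, and 45.0% and 38.6%. Outside promoters (1481 and 1942 regions) they were 52.9% and 42.9%, 34.1% and 24.1%, and 24.3% and 16.2%. The promoter difference for H3K4me3 was within counting error. Regions of at least 800 bp were at 85.6% and 66.2% for H3K4me3, 78.7% and 49.3% for H3K9ac, and 59.0% and 44.9% for H3K27ac.

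Lone subunits differed in the modifications around them. Regions with RBBP4 alone overlapped an H3K4me3 peak in 50.0% without an H3.3 peak and in 50.2% with one. For HDAC2 alone these shares were 42.7% and 51.3%, and for HDAC1 alone 32.2% and 48.9%. Lone MTA1, CHD4 and MBD2/3 regions without an H3.3 peak were at 16.0%, 14.8% and 14.7%, against 34.6%, 37.6% and 37.2% with one. These shares too are over all lengths. Of lone subunits, only RBBP4 had more than 11 regions without an H3.3 peak at 400 to 800 bp, and its share there was 59.1% of 1356 regions without an H3.3 peak, against 47.9% of 1584 with one. Under 200 bp, where no subunit region had an H3.3 peak, lone HDAC2 and HDAC1 regions overlapped H3K4me3 peaks in 36.4% and 30.8%, and lone MTA1, CHD4 and MBD2/3 regions in 14.9%, 14.0% and 12.4%. The deacetylases thus lay at H3K4me3 more often than these 3 subunits did at that length also.

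**Figure D3:**
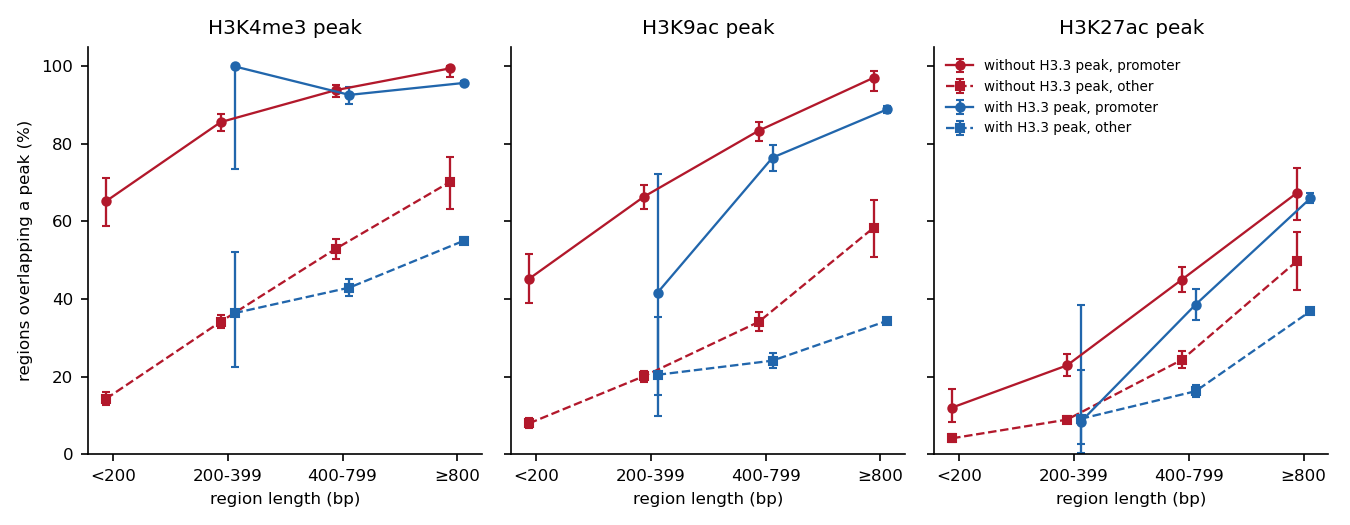
Share of regions overlapping a peak of H3K4me3, H3K9ac or H3K27ac in percent (vertical axis, 95% exact binomial intervals) by region length in bp, for subunit regions without an H3.3 peak (red) and with one (blue), at promoters (solid) and elsewhere (dashed). At 400 to 800 bp the red points lie above the blue ones, for H3K4me3 outside promoters at 52.9% against 42.9%; with an H3.3 peak and 200 to 400 bp there were only 12 promoter and 44 other regions.

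Many of the regions lay near H3.3 without touching it. The median distance to the nearest H3.3 region was 4047.5 bp. An H3.3 region lay within 1 kb of 2581 regions (28.7%), and of 38.7% of the promoters among them, against 17.6% of regions with no annotated feature. Another 2819 regions had no H3.3 region within 10 kb. H3K4me3 peaks overlapped 67.8% of regions within 1 kb, 40.1% of those at 1 to 10 kb and 39.4% of those farther away. At promoters the 3 shares were 91.6%, 84.9% and 86.8%, and median H3K4me3 was 14.6, 12.9 and 14.0 RPKM, so promoters far from any H3.3 region had a median H3K4me3 density close to that of promoters next to one. In the class of 400 to 800 bp the 3 shares were 80.3%, 61.7% and 67.1% over all regions and 95.4%, 91.5% and 95.4% at promoters.

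A few regions were high in every library. Of the 82893 regions, 4 had at least 15 RPKM in all 11 libraries, and all 4 were without an H3.3 peak. The highest, chr2:98506340-98507546, lies in intergenic DNA with no annotated feature. Its levels were 52.1 and 36.4 RPKM for H3.3, 115 to 184 RPKM for the 6 subunits, and 44.9, 51.1 and 55.5 RPKM for H3K27ac, H3K4me3 and H3K9ac, with no peak called for any of these modifications. The others were chr2:98502333-98503208, chr9:35112684-35113247 and chr9:3022055-3022275. At these 4 regions an H3.3 peak coverage of 0 thus went with a high H3.3 level. The mitochondrial region chrM:1-6496 had peaks of all 6 subunits, at 48.8 to 83.0 RPKM, with 0 RPKM in both H3.3 libraries and 0.37 to 2.26 RPKM of the modifications. The nuclear region chr1:24619855-24620059 also had peaks of all 6 subunits, at 16.8 to 25.0 RPKM, and modifications at 0 to 0.24 RPKM. Unlike the mitochondrial region it was high in H3.3, at 11.1 and 4.25 RPKM, without a peak call. Whether repeated or mitochondrial sequence accounts for these levels was not tested. Without the 29 regions that reached 5 RPKM in both H3.3 libraries or lay on mitochondrial DNA, 8975 regions remained, and the promoter share was 25.9%.

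Apart from these, regions with all 6 subunits were few. One lay in an intron of Jarid2, a cofactor of Polycomb repressive complex 2, at chr13:44964891-44965203, with subunits at 7.81 to 18.3 RPKM and H3.3 at 4.71 and 4.52 RPKM. Another was the promoter region of Banp, chr8:124473317-124474325, a gene for a CpG-island-binding regulator. It had subunits at 2.15 to 7.10 RPKM, H3.3 at 1.39 and 1.56 RPKM and H3K4me3 at 9.63 RPKM, and an H3.3 region began 170 bp away.

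The separate MTA1 and RBBP4 libraries of knockdown and control cells show how far these peaks were found again. For MTA1, the knockdown list overlapped 22 of the 849 regions with an MTA1 peak and no H3.3 peak (2.59%, interval 1.63% to 3.90%), and the control list overlapped 15 (1.77%, interval 0.992% to 2.90%). Regions without an H3.3 peak that had no MTA1 peak were overlapped in 2.07% and 1.75%. Of the regions with an MTA1 peak, 553 of 849 were under 200 bp, against 1515 of the 8155 with none, so these totals set lengths apart. At 200 to 400 bp the regions with an MTA1 peak were found again more often, at 6.78% in knockdown and 5.93% in control cells (interval 2.42% to 11.8%), against 1.29% and 0.996% (interval 0.712% to 1.35%) with no MTA1 peak. At 400 to 800 bp the shares were 4.41% and 2.21% with an MTA1 peak and 3.52% and 2.68% without, and the intervals overlapped. In MTA1 regions with H3.3 the shares were 5.86% in knockdown and 3.78% in control cells. The 2 MTA1 lists were unlike, with 904 knockdown peaks of median width 861.5 bp and 1703 control peaks of median width 150 bp. With an overlap of 1 bp asked for, wider peaks meet more regions. The knockdown and control shares of MTA1 therefore cannot be set against each other.

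RBBP4 peaks were found again more often over all lengths. The knockdown list overlapped 330 of the 5936 regions with an RBBP4 peak and no H3.3 peak (5.56%, interval 4.99% to 6.17%), and the control list 366 (6.17%, interval 5.57% to 6.81%). Regions without an H3.3 peak that had no RBBP4 peak were at 0.945% in knockdown and 1.21% in control cells, and RBBP4 regions with H3.3 at 7.83% and 7.71%. In the 2 longer classes the order against H3.3 was the opposite. Where no H3.3 peak is present, length comes from subunit peaks alone, so this order cannot be told apart from wider subunit peaks. At 400 to 800 bp, RBBP4 regions without an H3.3 peak were at 7.28% in knockdown and 7.11% in control cells, against 3.51% and 3.65% with one, and at 800 bp or more at 26.7% in both, against 8.36% and 8.20%. Regions without an H3.3 peak of 200 to 400 bp were at 1.68% in knockdown and 2.94% in control cells with an RBBP4 peak, against 2.25% and 2.15% without, so at this length the RBBP4 peak did not set them apart beyond counting error. Starting from the control list, 198 of the 438 RBBP4 peaks in regions without an H3.3 peak were found in knockdown cells (45.2%, interval 40.5% to 50.0%), and 940 of 2055 in subunit regions with H3.3 (45.7%, interval 43.6% to 47.9%). Outside the table's regions the share was 7.09% (70 of 987). The share rose with the authors' score of the peak in both sets, to 80.7% and 88.4% at scores of at least 200. RBBP4 control peaks were thus found in knockdown cells at shares within counting error of each other with and without an H3.3 peak. For MTA1 the shares were 32.0% of 178 and 34.6% of 529 control peaks. The depth of these 4 libraries is unknown, and 1 library per condition gives no replicate check.

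**Figure D4:**
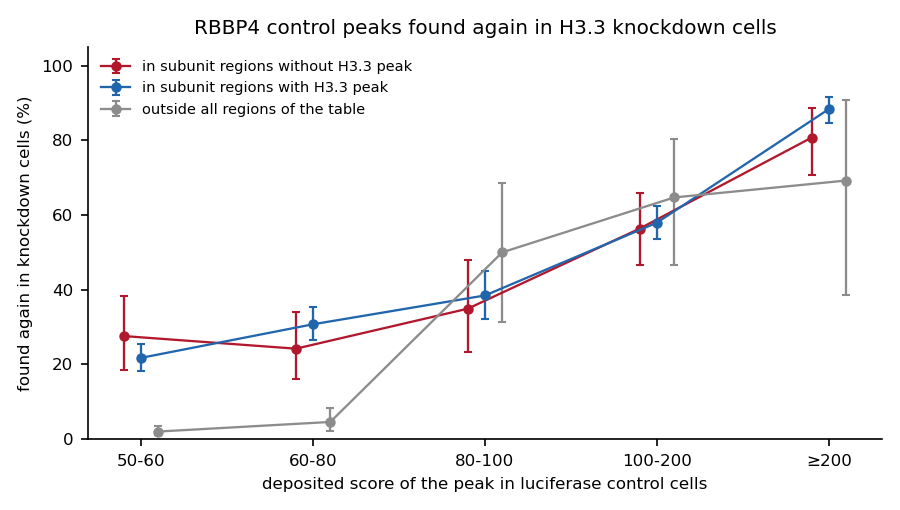
Share of RBBP4 peaks of luciferase control cells that overlap an RBBP4 peak of H3.3 knockdown cells in percent (vertical axis, 95% exact binomial intervals), by the score of the control peak, for peaks in subunit regions without an H3.3 peak (red), with one (blue), and outside the table's regions (grey). The share without an H3.3 peak reaches 80.7% at scores of at least 200, next to 88.4% with an H3.3 peak.

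The sequential ChIP, which asks where RBBP4 and tagged H3.3 share chromatin, had 6 peaks. One overlapped a region without an H3.3 peak, a promoter region with HDAC1 and RBBP4 peaks, and 5 overlapped subunit regions with H3.3. That region had a sequential fold enrichment of 8.47 as deposited by the authors, RBBP4 at 7.38 RPKM and H3.3 at 1.71 and 1.03 RPKM, and it overlapped RBBP4 peaks in both the knockdown and the control lists. One of the 6 places where the sequential ChIP found FLAG-H3.3 with RBBP4 therefore had no HA-H3.3 peak in the other 2 libraries.

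Genes at these promoters were mostly expressed. A gene was tied to a promoter region when its 5′ end lay within 3 kb, which tied 1854 of the 2324 promoter regions to 2015 genes. In the control clones 85.7% of them (1726 genes) had a mean FPKM of at least 1. The share was 89.9% of the 4736 genes at promoters of subunit regions with H3.3 but of no region without an H3.3 peak. It was 59.9% of genes with only H3.3 regions and no subunit at the promoter, and 22.9% of genes with no promoter region. Median FPKM at regions without an H3.3 peak was 11.2 and 11.1 in control clones 1 and 2, against 13.6 and 13.2 at subunit regions with H3.3. Where no H3.3 region of any kind lay within 3 kb of the gene's 5′ end, 81.9% of 905 genes were expressed, with medians of 8.45 and 8.39 FPKM. The share was 88.7% of 1110 genes where one did. Expression was also more frequent with more subunits at the promoter, at 82.0% of genes with 1 subunit, 91.7% with 2, 87.2% with 3 and 96.6% with at least 4 (84 of 87 genes).

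**Figure D5:**
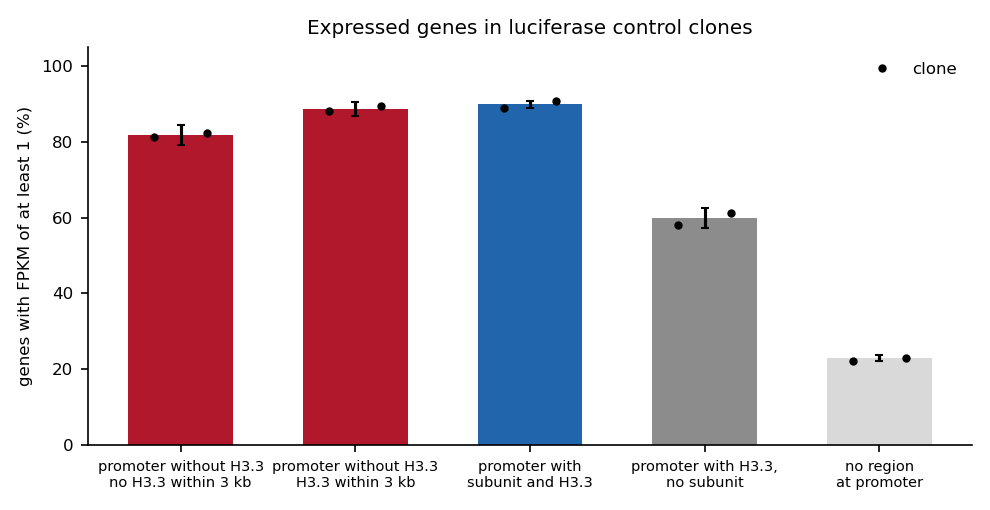
Bars give the share of genes with a mean control FPKM of at least 1 in percent, with 95% exact binomial intervals, by the regions at their promoter, and points the share in each of the 2 control clones. Genes at subunit regions without an H3.3 peak (red) stand at 81.9% with no H3.3 region within 3 kb and at 88.7% with one, next to 89.9% at subunit regions with H3.3 (blue) and above 59.9% at H3.3 regions with no subunit (dark grey).

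The 10 most highly expressed genes at these regions, by mean control FPKM, were the ribosomal protein genes Rps12, Rps28, Rpl38, Rpl4, Rps18 and Rplp2, the ribosome-associated scaffold gene Gnb2l1, the cytoplasmic actin gene Actg1, the translation elongation factor gene Eef2 and Spp1, which encodes the secreted matrix protein osteopontin. All 10 also had an H3.3 region within 3 kb of the 5′ end. Rplp2 had 2207, 2120 and 2278 FPKM in knockdown clones 1 to 3 and 1559 and 1503 FPKM in control clones 1 and 2, and its promoter region chr7:148632906-148633860 held peaks of every subunit but CHD4, with H3.3 at 1.00 and 0.68 RPKM. Rps18 had 1942, 1788 and 1669 FPKM in the knockdown clones and 1674 and 1534 FPKM in the control clones, at a region with 4 subunits. Reads of ribosomal protein genes may be shared with processed pseudogenes, so their levels are uncertain.

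Gene lists showed where the regions lay. Among 13 fibroblast and matrix genes, 5 had a region without an H3.3 peak at the promoter, namely the fibrillar collagen genes Col3a1 and Col5a1, the growth factor receptor gene Pdgfra and the mesenchymal transcription factor genes Prrx1 and Twist2, each with RBBP4 alone. All 5 also had an H3.3 region within 3 kb of the 5′ end. Of 19 cell cycle genes, 4 had one, and of 11 NuRD subunit genes 1 had one, Mta1 itself. The counts were 2 of 22 Hox genes, 7 of 60 clustered histone genes, 50 of 297 Zfp zinc finger genes, 2 of 1225 olfactory and vomeronasal receptor genes, 0 of 3 small RNA genes and neither H3.3 gene. Over all 17791 genes with a known strand the share was 11.3%, so the share of Zfp genes (16.8%) was above it and that of receptor genes (0.16%) far below it. The same order was found at promoters of subunit regions with H3.3, at 38.7% of Zfp and 0.08% of receptor genes against 29.2% of all. It is thus not particular to the regions without an H3.3 peak. The fibroblast and cell cycle lists were at 61.5% and 57.9% there.

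H3.3 knockdown was checked first on its targets. H3f3a had 71.8, 35.6 and 5.05 FPKM in knockdown clones 1 to 3, against 128.3 and 143.5 FPKM in control clones 1 and 2. H3f3b had 144.4, 104.3 and 51.7 FPKM in the knockdown clones, against 249.4 and 237.1 FPKM in the control clones. All knockdown clones were under both control clones, which held for 21.2% of all genes tested. Clone 3 was lowest and clone 1 still at 52.8% and 59.4% of the control means. Neither gene passed the test (limma adjusted p of 0.516 and 0.469). Fibroblast markers were expressed in all clones, with 8 of 8 at a mean control FPKM of at least 1 and a summed level of 7708 to 8445 FPKM in knockdown clones and 5551 to 5617 FPKM in control clones. Of the other lineages, 0 of 4 epithelial and 0 of 3 neural markers reached that level. The haematopoietic list, with 2 of 3, summed to 10.4 to 17.7 FPKM in knockdown and 9.41 to 10.7 FPKM in control clones. The endothelial list, with 1 of 3, summed to 0.235 to 0.751 FPKM in knockdown and 3.88 to 7.10 FPKM in control clones. The muscle list, also with 1 of 3, summed to 2.13 to 2.77 FPKM in knockdown and 1.99 to 7.36 FPKM in control clones. Their part in the results below was not tested.

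No gene at a region without an H3.3 peak differed past the adjusted threshold between knockdown and control clones. Of 1740 such genes tested, 0 had an adjusted p under 0.05 in limma, with Benjamini-Hochberg adjustment over all 11728 genes, of which 4 (0.0341%) passed. At an unadjusted p under 0.05 there were 57 higher and 110 lower genes among the 1740, against backgrounds of 3.5% higher and 6.31% lower over all genes tested. The excess of lower genes did not hold under another scaling. With quantile normalization there were 80 higher and 66 lower genes at these regions, against 4.75% higher and 4.20% lower over all genes, and the median log2 difference was -0.01 at these regions and over all genes. In sum 9.60% of the genes at these regions were under that unadjusted limit, against 9.81% of all genes tested. The median log2 difference, knockdown minus control, was -0.11 at these regions and -0.10 over all genes without that scaling. All 3 knockdown clones were under both control clones for 22.4% of the genes at these regions, against 21.2% of all, and over both for 11.3%, against 11.4%. Each of these shares was near the background.

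The 10 genes of smallest p at these regions are given by value, since none passed. Among those higher in all knockdown clones, Smim11, a gene for a small membrane protein, had 48.6, 41.6 and 41.8 FPKM in knockdown clones 1 to 3, against 19.9 and 16.1 FPKM in control clones 1 and 2 (log2 difference 1.25, SE 0.19, limma adjusted p = 0.329). No H3.3 region lay within 3 kb of it. Sik2, a salt-inducible kinase gene, had 11.6, 8.68 and 9.54 FPKM in knockdown clones and 3.33 and 4.38 FPKM in control clones. Akap13, which encodes a protein kinase A anchoring protein, had 4.73, 5.70 and 6.12 FPKM against 2.09 and 2.36 FPKM. For these 3 genes the clones of the groups did not overlap, which a choice by smallest p favours. All 3 knockdown clones were over both control clones for 11.4% of all genes tested. Rsrc1, a splicing-related gene, had a log2 difference of 0.84, and Rpl34, a ribosomal protein gene, of 1.25, and for Sik2, Akap13, Rsrc1 and Rpl34 the limma adjusted p was 0.401.

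Brinp1, a gene named for its induction by BMP and retinoic acid in neural cells, had the smallest p of all genes at these regions. It had 1.97, 2.05 and 1.97 FPKM in knockdown clones, against 8.14 and 6.49 FPKM in control clones (log2 difference -1.46, SE 0.19, limma adjusted p = 0.248). Its promoter region chr4:68615117-68616027 held HDAC2 and RBBP4 peaks, with H3K4me3 at 15.4 RPKM, H3.3 at 2.02 and 2.33 RPKM and no H3.3 region within 3 kb. Shkbp1 had 6.01, 6.55 and 6.17 FPKM in knockdown clones and 16.1 and 14.9 FPKM in control clones. Rasgef1b, a Ras-family exchange factor gene, had 0.604, 0.683 and 0.557 FPKM against 3.05 and 3.15 FPKM. Sec24c, a COPII coat gene, and Cdr2 had log2 differences of -0.97 and -1.25, both with a limma adjusted p of 0.401. Like Brinp1, Shkbp1 and Rasgef1b had no H3.3 region within 3 kb, while Sec24c, Cdr2, Sik2, Akap13, Rsrc1 and Rpl34 had one.

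The cell cycle genes at these regions were the replication licensing genes Mcm2, Mcm3 and Mcm5 and the cyclin gene Ccne1, of which Mcm3 was the one with no H3.3 region within 3 kb. Mcm2 had 17.1, 58.7 and 48.2 FPKM in knockdown clones 1 to 3, against 133.2 and 75.6 FPKM in control clones. Mcm3 had 20.4, 59.4 and 47.8 FPKM against 111.6 and 60.9 FPKM, and Mcm5 10.9, 34.7 and 43.8 FPKM against 98.3 and 50.2 FPKM. Knockdown clone 1 was lowest and control clone 1 highest for each of the 3. Ccne1 had 13.6, 25.6 and 20.2 FPKM against 47.1 and 25.2 FPKM, with overlapping groups. All 4 had a log2 difference below 0, with a median of -1.24 against -0.10 over all genes (-1.15 against -0.01 with quantile normalization), and none passed the test (limma adjusted p of 0.512 to 0.525). Twist2 had 32.3, 39.8 and 26.1 FPKM in knockdown clones and 66.0 and 77.9 FPKM in control clones, and Mta1 had 51.9, 60.9 and 33.4 FPKM against 64.3 and 71.1 FPKM, without passing either (limma adjusted p of 0.417 and 0.561). Mta1 had its promoter region at chr12:114335884-114336434, with HDAC2 and RBBP4 peaks, H3.3 at 0.67 and 0.49 RPKM and no H3.3 region within 3 kb.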

How the data were processed

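ChIP-seq, sequential ChIP-seq and RNA-seq files were used as deposited. The build mm9 and the tools MACS2, Bowtie, TopHat, bedtools, Cuffdiff and Cufflinks are named per the submitters' processing notes, without versions or roles. The region table gives log2 values deposited by the authors as log2(RPKM + 1), which were turned back into RPKM and reads (100% of values below 100 reads were whole within 0.05). A second deposited table gives peak coverage per library, as a fraction from 0 to 1 of the region's length, with counts of annotated features. Each other peak list has a deposited score per peak whose scale is not stated, so scores were used only within a list. The sequential list was called with MACS 2.1.1.20160309, per the file headers, and holds pileup signal, −log10 p and q, and a fold-enrichment ratio, of which the fold was used. Expression was deposited by the authors as FPKM, in tables laid out as Cufflinks writes them, with no read counts, strand or depth. Inputs were not analysed here.

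The regions without an H3.3 peak and the gene lists were chosen with earlier results of these data known. Overlaps needed at least 1 bp, and intervals are exact (Clopper-Pearson). Strand came from the RefSeq table for 17791 of 23951 symbols, 1046 of them through an older symbol. Genes were compared with limma 3.58.1 (R 4.3.3; a two-sided moderated test with a mean-variance trend) on log2(FPKM + 1), keeping genes whose mean FPKM reached 1, after a check on simulated data. A fold on this scale understates the change of low genes. Python 3.11.15, pandas 2.3.3, NumPy 2.4.6, SciPy 1.17.1 and matplotlib 3.10.9 were used. Regions named were those with the most subunits, the highest level of each library and the least H3.3 coverage, and genes named were the 10 of highest control FPKM, the 5 higher and 5 lower of smallest p, and members of the lists. The 4 regions high in all libraries and the promoters of regions with at least 4 subunits were added after the values were seen. No mm9 genome was used, so the sequence of the regions themselves was not searched, and promoters came from RefSeq.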

Additional observations from a re-analysis of the deposited data

How the results depend on the processing

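Single values rest on few reads, each ChIP target has 1 library except H3.3, and length differs between the region sets. The length classes, the regions high in H3.3 and, for the sequential ChIP alone, the H3.3 replicates left out were added after the data were seen. Asking for at least 20 reads in a subunit library with a peak left 1899 regions, with 56.6% at 2 or more subunits, a promoter share of 45.3%, median RPKM of 14.0, 2.73 and 1.74 for H3K4me3, H3K9ac and H3K27ac, and peak shares of 76.8%, 63.8% and 42.6%. Asking for 2 subunits left 1812. With 1 H3.3 replicate deciding, the number was 9804 to 10901, the share with 2 or more subunits 21.5% to 21.6%, the promoter share 25.6% to 26.9%, median H3K4me3 1.60 to 1.85 RPKM, median H3K9ac 1.11 to 1.16 RPKM, and the peak shares 48.3% to 49.8%, 34.9% to 36.2% and 19.1% to 19.9%. The sequential ChIP overlapped 1 to 2 such regions, 2 without H3.3 replicate 2. The 5′UTR class alone gave a promoter share of 6.83% and the 3 kb upstream class alone 20.6%. As means of log2(RPKM + 1) turned back into RPKM, the 3 modifications were at 3.27, 1.51 and 1.30 RPKM. With 0.1 added in place of 1 they were at 2.20, 1.23 and 1.13 RPKM. With at least 50% of the listed peak inside the region, the peak shares were 2.72%, 3.93% and 12.9%, those of RBBP4 control 5.09% and those of MTA1 knockdown 0.942%. With scores of at least 100 they were 45.3%, 31.6% and 8.98%, and MTA1 control was at 0.118%, RBBP4 control at 3.13%, RBBP4 knockdown at 2.06% and MTA1 knockdown at 0.0% (0 of 849 regions, which allows up to 0.353%).

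The difference in peak share, regions without an H3.3 peak minus subunit regions with H3.3, was -17.0, -13.2 and -24.1 percentage points for H3K4me3, H3K9ac and H3K27ac, and turned to 13.9, 16.5 and 10.7 in regions of 400 to 800 bp, to 1.22, 6.95 and 6.43 in promoters of that length and to 9.99, 10.0 and 8.09 elsewhere. The same difference, in regions of 400 to 800 bp and of at least 800 bp, turned from -28.0 to 20.3 and 22.9 points for 2 or more subunits, from -27.0 to 14.99 and 4.69 points for an RBBP4 peak, from -1.17 to 14.6 and 25.2 points for promoters, and in median RPKM from -0.76 to 6.92 and 15.8 for H3K4me3, from -0.13 to 0.72 and 2.62 for H3K9ac and from -0.17 to 0.27 and 0.66 for H3K27ac. Beyond length itself the cause was not tested. The share of expressed genes was 88.6% at an FPKM of 0.5, 68.7% at 5 and 89.1% with genes tied within 1 kb.

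For knockdown against control, 0 genes passed in every setting run. Counts at an unadjusted p under 0.05 were 80 higher and 66 lower genes with quantile normalization, which turned round the main 57 and 110, and 212 lower and 101 higher with any overlap of gene and region. Leaving out 1 clone gave 21 to 69 higher and 36 to 123 lower genes, with 21 and 36 without control clone 1 and 31 and 48 without control clone 2. Clone numbers are not said to pair the clones, and same-numbered clones did not deviate together (r of -0.25 and -0.095). With the clone number as a replicate block there were 28 higher and 38 lower genes, and 0 passed. The 10 genes of smallest p kept their direction in all settings run and passed in none. They were chosen by the main fit and the other settings reuse its clones, so the kept direction is no independent check. Sequence windows around region centres were not run. The cause of these shifts was not tested.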
